A study of Mus musculus with 36 samples.

Results

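The genes described here are 34 mouse genes of glycolysis and of the response to low oxygen, chosen by gene name from 3 tables that hold 18256 to 19834 genes each, and all 34 had a row in every table. They fall into 19 carriers and enzymes that take glucose to lactate, 4 kinases that set the flux through this route, and 11 other targets of the hypoxia-inducible factor (HIF). They were followed over 20 RNA-seq libraries from a study of TGFβ and the zinc finger transcription factor RREB1. KSIC_806 cells, a mouse pancreatic ductal adenocarcinoma (PDA) line, were labelled KO or WT for RREB1 and given 100 pM TGFβ for 1.5 h or 2.5 µM SB505124 (SB, which blocks the receptor kinase of TGFβ) for 6 h, with 2 libraries in each of 4 groups. E14 mouse embryonic stem cells, labelled KO or WT in the same way, were sampled during embryoid body (EB) formation at day 4 and day 0, again with 2 libraries in each of 4 groups. Organoids of pancreatic epithelial cells, with 1 µg/mL doxycycline (dox) from plating or without it, received the same TGFβ or SB, with 1 library per condition. What dox switched on in the organoids, what the mark S4 on every PDA label stands for, and whether each KO line was 1 clone are not given in the sources used here. Nothing says that the paired libraries came from separate cultures, so the spread between them may be technical. TGFβ and SB differed in both agent and duration, and the part of each cannot be told apart.

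Glycolysis splits glucose into pyruvate. SLC2A carriers bring glucose into the cell, a chain of cytosolic enzymes from hexokinase to pyruvate kinase converts it, LDHA turns pyruvate into lactate, and SLC16A3 exports the lactate. HIF is a pair of proteins whose alpha subunit is marked for destruction by the EGLN prolyl hydroxylases while oxygen is present; when oxygen falls, the alpha subunit persists and the pair activates genes through short ACGTG or GCGTG elements. Most genes of glycolysis are HIF targets, as are genes for mitophagy, collagen hydroxylation and acid-base balance, and both tumour cells and pluripotent stem cells are known for high glycolysis also where oxygen is present.

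The bases before the start site are shown for 5 members that were far lower in KO than in WT stem cells at day 0 (Bnip3, Ldha, Aldoc, P4ha1 and Egln3) and for 2 of the 4 that were higher there (Ddit4 and Kdm3a). Where a gene has several windows, the one listed first in the RefSeq table is shown. Kdm3a has other windows in which no match was found, and Ldha and Aldoc each have another with 1 match. Each line gives the 250 bases before a RefSeq start site on GRCm38.p6 (the mm10 assembly), 5′ to 3′ on the gene's strand, with every ACGTG or GCGTG in capitals on either strand, where the opposite strand reads CACGT or CACGC.
Bnip3 (chr7:138909507-138909756, minus strand): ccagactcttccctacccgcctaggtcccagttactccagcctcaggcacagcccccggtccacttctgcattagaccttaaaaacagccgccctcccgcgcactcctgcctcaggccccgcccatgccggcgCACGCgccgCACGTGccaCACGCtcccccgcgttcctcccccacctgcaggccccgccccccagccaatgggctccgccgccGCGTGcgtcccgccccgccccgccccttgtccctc
Ldha (chr7:46845554-46845803, plus strand): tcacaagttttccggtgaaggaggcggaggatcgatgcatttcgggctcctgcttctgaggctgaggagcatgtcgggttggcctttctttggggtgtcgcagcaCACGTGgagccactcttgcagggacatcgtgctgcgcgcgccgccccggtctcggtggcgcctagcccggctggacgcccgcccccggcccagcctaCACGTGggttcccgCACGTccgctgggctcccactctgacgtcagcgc
Aldoc (chr11:78322823-78323072, plus strand): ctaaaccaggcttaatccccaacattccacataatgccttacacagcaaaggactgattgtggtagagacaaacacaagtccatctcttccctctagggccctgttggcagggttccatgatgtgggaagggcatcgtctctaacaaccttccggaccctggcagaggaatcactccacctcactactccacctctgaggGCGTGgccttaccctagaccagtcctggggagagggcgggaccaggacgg
P4ha1 (chr10:59323046-59323295, plus strand): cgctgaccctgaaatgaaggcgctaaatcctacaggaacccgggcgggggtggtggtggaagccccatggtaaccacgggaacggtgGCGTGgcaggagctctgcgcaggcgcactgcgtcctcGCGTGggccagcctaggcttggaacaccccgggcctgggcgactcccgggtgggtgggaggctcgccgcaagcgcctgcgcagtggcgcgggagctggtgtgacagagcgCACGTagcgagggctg
Egln3 (chr12:54203875-54204124, minus strand): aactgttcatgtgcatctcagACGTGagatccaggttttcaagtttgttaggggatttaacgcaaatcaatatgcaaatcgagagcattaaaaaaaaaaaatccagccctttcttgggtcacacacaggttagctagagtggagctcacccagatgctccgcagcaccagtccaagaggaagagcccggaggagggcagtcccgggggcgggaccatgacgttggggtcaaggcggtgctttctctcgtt
Ddit4 (chr10:59951771-59952020, minus strand): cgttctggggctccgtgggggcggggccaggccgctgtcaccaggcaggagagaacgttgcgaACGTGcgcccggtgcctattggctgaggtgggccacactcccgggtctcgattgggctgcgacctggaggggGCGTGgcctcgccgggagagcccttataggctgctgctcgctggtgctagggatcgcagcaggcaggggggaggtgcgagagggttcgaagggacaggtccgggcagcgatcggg
Kdm3a (chr6:71632918-71633167, minus strand): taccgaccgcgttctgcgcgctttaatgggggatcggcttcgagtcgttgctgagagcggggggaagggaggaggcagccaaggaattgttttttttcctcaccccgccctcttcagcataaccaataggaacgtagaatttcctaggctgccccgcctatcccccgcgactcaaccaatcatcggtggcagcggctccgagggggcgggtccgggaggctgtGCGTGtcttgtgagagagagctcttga
RefSeq windows were matched for 31 of the 34 members. Of these, 28 (90.3%) held ACGTG or GCGTG on either strand in at least 1 window, against 41.5% of all 27025 genes in the table. The 31 members had 46 windows, more per gene than the 32851 windows of all 27025 genes, and base composition was not matched. CACGTG, the E-box, contains ACGTG on both strands, and it was present for 4 of 31 members (12.9%) and for 6.86% of all genes. Of the 4 members higher in KO at day 0, Ddit4 and Kdm3a had a match, Eno2 had none in its only window, and no window was matched for Slc2a3. The other members with no match, Gpi1 and Tpi1, were lower in KO. A match is only a description of these letters.

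The recovered depth was 38728354 to 44504338 reads in 7 PDA libraries, 20410770 in PDA KO SB replicate 1, 19885697 to 29082712 in the EB libraries and 23914870 to 35808735 in the organoids. Values are the deposited normalized counts, which carry no correction for gene length, so levels are compared between libraries and not between genes. Rreb1 transcripts did not follow the KO label. They were higher in KO in PDA cells under SB (2164 and 2195 in KO against 1458 and 1501 in WT) and in stem cells at day 0 (2642 and 2830 in KO against 1085.5 and 1019 in WT), lower in KO in PDA cells under TGFβ (2886 and 2560.4 in KO against 4293 and 4212 in WT), and did not pass the test at day 4 (1920.5 and 1512 in KO against 1482 and 1586 in WT). KO here means the library labelled KO throughout. Ductal epithelial genes were expressed in the PDA cells and the organoids, while the endocrine genes with a row in these tables summed to at most 1.13 in any of those libraries. The pluripotency genes summed to 119600 to 125300 in KO and 106600 to 107000 in WT stem cells at day 0. The Eno1 row was nearly empty, with at most 31.2 in any library, beside 1476 to 9202 in the row of its near-identical copy Eno1b, so reads of enolase 1 are uncertain and Eno1 is only counted. Slc2a3 and Ndufa4l2 were at or near 0 in PDA cells (at most 4.02) and in organoids (at most 8.64) and did not pass the filter on low values there, and Eno1 did not pass in organoids.

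In embryonic stem cells at day 0, most of the route from glucose to lactate and most HIF targets were lower in KO than in WT. Of the 34 members, all of which passed the filter, 28 were lower (33.3% of all 15227 genes tested were) and 4 were higher (33.9% of all genes) at a limma adjusted p under 0.05. The median log2 fold change of the members was -1.77, beside -0.00 over all genes tested, and 22 members were more than 2-fold lower. The lower ones were 17 of 19 carriers and enzymes, 2 of 4 flux kinases and 9 of 11 other HIF targets. The higher ones were the glucose carrier Slc2a3, the neuronal-type enolase Eno2, the histone demethylase Kdm3a and the mTORC1 inhibitor Ddit4.

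Slc2a1, the general glucose carrier, had 4119 and 3935 in KO against 15873 and 15577 in WT at day 0 (log2 fold change -1.97 ± 0.12 SE, limma adjusted p = 4.4e-09). Pfkl, the liver-type phosphofructokinase, had 2004 and 1926 in KO against 13511 and 13081 in WT (-2.76 ± 0.10, limma adjusted p = 3.0e-11). Aldoc, an aldolase, had 125 and 96.6 in KO against 1600.4 and 1571 in WT (-3.84 ± 0.14, limma adjusted p = 6.6e-11). Pfkl and Aldoc were named partly because their groups do not overlap, so that separation is not a further result. Pgk1, phosphoglycerate kinase, had 2669 and 2676 in KO against 10386 and 11148 in WT (-2.01 ± 0.08). Ldha had 3809 and 3894 in KO against 36750 and 37115 in WT (-3.26 ± 0.08, limma adjusted p = 1.3e-12). The fall along the chain was uneven: Gapdh (-0.52 ± 0.09), Pgam1 (-0.63 ± 0.07) and Hk2 (-0.69 ± 0.10) fell less than Pfkm (-2.17 ± 0.07), Tpi1 (-2.01 ± 0.06), Aldoa (-2.03 ± 0.11) or the lactate exporter Slc16a3 (-2.63 ± 0.08), and the differences between these genes were not tested. Eno1b, named because its row may hold reads of enolase 1, had 1704 and 1476 in KO against 8255 and 8391 in WT.

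Among the flux kinases, Pdk1 and Pdk3, which inhibit pyruvate dehydrogenase, were lower in KO at day 0 on the log2 scale (-0.71 ± 0.08 for Pdk1 and -0.66 ± 0.09 for Pdk3). Pfkfb3 and Pfkfb4, which set the level of an activator of phosphofructokinase, did not pass the test (-0.20 ± 0.11 and -0.18 ± 0.20, limma adjusted p = 0.12 and 0.45).

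The largest difference of all members was in Ndufa4l2, which encodes a mitochondrial protein related to a subunit of the respiratory chain: 11.9 and 6.69 in KO against 964 and 944 in WT at day 0 (log2 fold change -6.58 ± 0.21, limma adjusted p = 1.6e-11). In those KO libraries 3 reads equal a value of 2.54 in replicate 1 and 2.87 in replicate 2. The size of each Ndufa4l2 difference against these KO libraries therefore rests on few reads. Bnip3, a mitophagy receptor, had 433 and 453 in KO against 4293 and 4354 in WT (-3.28 ± 0.10, limma adjusted p = 1.6e-11). Its relative Bnip3l was lower by only 0.47 ± 0.09 on the log2 scale. Ankrd37, an ankyrin repeat protein, had 24.6 and 18.2 in KO against 145 and 128 in WT (-2.63 ± 0.18). Egln3 (-2.56 ± 0.10) and Egln1 (-1.18 ± 0.12), the oxygen-sensing prolyl hydroxylases, and P4ha1 (-2.22 ± 0.13) and P4ha2 (-1.36 ± 0.12), catalytic subunits of the collagen prolyl hydroxylases, were lower as well. Ddit4 stood the other way, with 9335 and 10973 in KO against 2935 and 3046 in WT (1.76 ± 0.11, limma adjusted p = 5.6e-09), and so did Kdm3a, with 8306 and 8336 in KO against 4370 and 4108 in WT (0.97 ± 0.09, limma adjusted p = 2.6e-07). The higher calls of Slc2a3 and Eno2 were less firm: each was lost when single day 0 libraries were left out, Slc2a3 with any of the 4 and Eno2 without WT replicate 2 or KO replicate 1 (0.31 in that case).

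**Figure D1:**
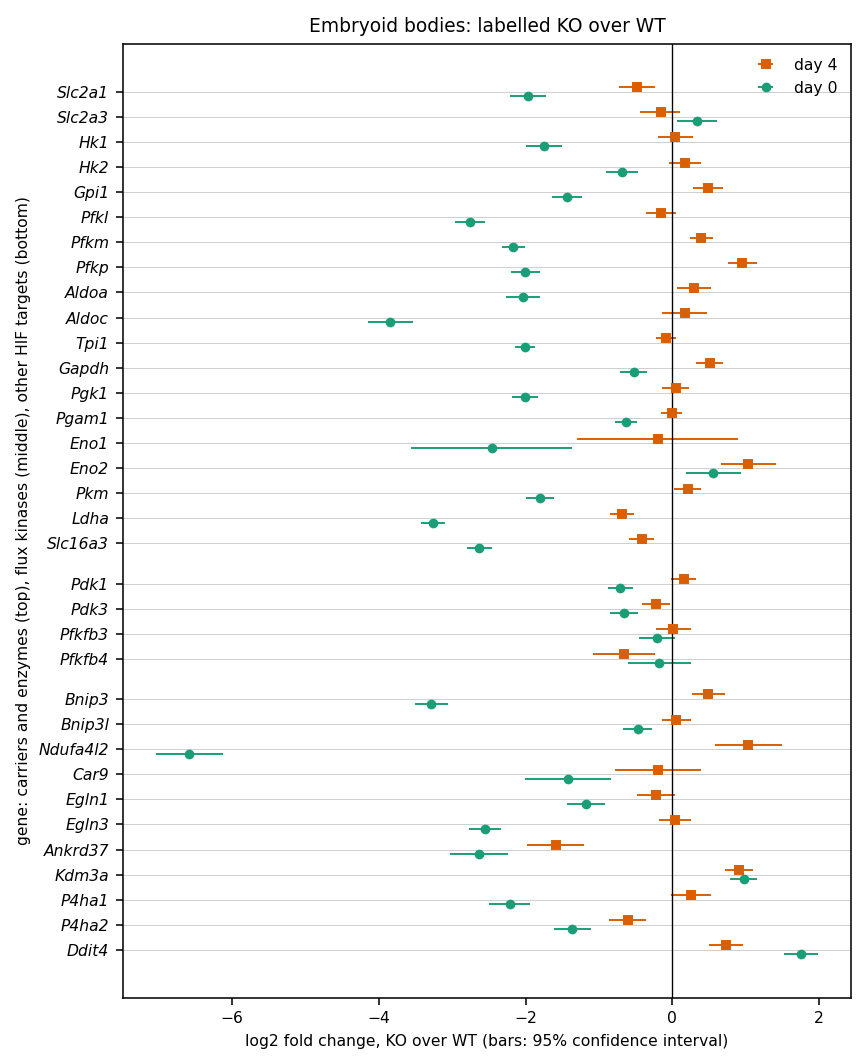
Log2 fold change of KO over WT for each of the 34 members in the EB table (horizontal axis, with 95% confidence intervals from limma), at day 4 (orange squares) and day 0 (green circles), with carriers and enzymes at the top, flux kinases in the middle and other HIF targets at the bottom. At day 0 most members lie left of 0, down to -6.58 for Ndufa4l2, while at day 4 they lie around 0, between -1.59 (Ankrd37) and 1.04 (Eno2 and Ndufa4l2).

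At day 4 the members were no longer lower as a group in KO. Of 34, 10 were higher (27.8% of all genes tested) and 6 were lower (28.4% of all genes), both close to or under the share among all genes, and the median was 0.04, beside -0.01 over all genes. With quantile normalization, or with libraries rescaled to the same total, the split was 9 higher and 10 lower. Pfkp, the platelet-type phosphofructokinase, was the largest rise among the enzymes of the main route after Eno2: 13259 and 10959 in KO against 6315 and 6104 in WT (0.96 ± 0.09, limma adjusted p = 6.0e-07). Ndufa4l2 had 2239.6 and 1567 in KO against 1054 and 789.9 in WT (1.04 ± 0.21), the opposite direction to day 0. Eno2 had 822 and 571 in KO against 361 and 307 in WT (1.04 ± 0.17).

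Ankrd37 remained lower at day 4, with 130.2 and 126 in KO against 415 and 363 in WT (-1.59 ± 0.18, limma adjusted p = 4.4e-06), and so did Ldha, with 42199 and 36769 in KO against 63343 and 63483 in WT (-0.69 ± 0.08, limma adjusted p = 3.1e-06). Slc2a1 had 36970 and 26786 in KO against 47352 and 40835 in WT (-0.48 ± 0.12, limma adjusted p = 0.0026), a change of -0.25 without KO day 4 replicate 2. Kdm3a (0.91 ± 0.09) and Ddit4 (0.73 ± 0.11) were higher in KO on both days. Bnip3 was higher at day 4 by 0.49 ± 0.10, with 12948 and 10048 in KO against 8891 and 7378 in WT, and by 0.31 without KO day 4 replicate 1. Pgk1 did not pass the test (0.05 ± 0.08, limma adjusted p = 0.67), with 17198 and 14674 in KO against 16382 and 14458 in WT. The KO day 4 libraries differed between themselves, replicate 1 being above replicate 2 for 32 of 34 members by a median of 1.25 times, and in WT at day 4 replicate 1 was above replicate 2 for 31 of 34.

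Between day 0 and day 4, members were higher at day 4 in both genotypes, and by more in KO. In WT, 23 of 34 were higher at day 4 (32.3% of all genes tested) and 2 were lower (30.8% of all genes), with a median of 0.46. The 2 lower ones were Pfkp (-1.33 ± 0.09) and hexokinase 1, Hk1 (-0.86 ± 0.11). Pfkfb3 had 3255 and 3019.6 at day 4 against 826 and 814 at day 0 in WT (1.93 ± 0.11, limma adjusted p = 3.2e-09). Ddit4 had 12348 and 10199 at day 4 against 2935 and 3046 at day 0 (1.91 ± 0.11), and Slc16a3 had 10824 and 9861 against 2722 and 2944 (1.87 ± 0.08). P4ha2 (1.70 ± 0.12), Egln1 (1.67 ± 0.12), Egln3 (1.65 ± 0.10) and Slc2a1 (1.48 ± 0.12) came next. Bnip3 (0.91 ± 0.10), Ldha (0.78 ± 0.08) and Pgk1 (0.52 ± 0.08) were higher by less, and no change passed the test for Gapdh (0.03 ± 0.09) or Aldoa (0.09 ± 0.11).

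In KO, 33 of 34 members were higher at day 4 than at day 0 (29.1% of all genes tested) and 0 were lower (30.9% of all genes). No member was lower at an unadjusted limma p under 0.05, or by edgeR or DESeq2 at an adjusted p under 0.05. The remaining gene was Pfkfb4 (-0.27 ± 0.20). The median log2 fold change was 2.22 over the members and -0.02 over all genes. Ndufa4l2 had 2239.6 and 1567 at day 4 against 11.9 and 6.69 at day 0 (7.56 ± 0.21, limma adjusted p = 3.1e-12). Bnip3 had 12948 and 10048 at day 4 against 433 and 453 at day 0 (4.68 ± 0.10). Egln3 had 4180 and 3311 against 200.2 and 190.3 (4.25 ± 0.10), and Slc16a3 had 8179 and 7320.2 against 434 and 480.0 (4.08 ± 0.08). Aldoc (3.73 ± 0.14), P4ha1 (3.60 ± 0.13) and Ldha (3.35 ± 0.08) followed. Slc2a1 (2.97 ± 0.12) and Pgk1 (2.57 ± 0.08) were higher at day 4 as well, and Ddit4 by 0.88 ± 0.11.

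The difference between the 2 time courses, KO minus WT, was tested as an interaction. It was above 0 for 28 members (27.1% of all genes tested) and below 0 for 2 (28.6% of all genes), with a median of 1.64. The largest were Ndufa4l2 (7.62 ± 0.30), Aldoc (4.01 ± 0.20), Bnip3 (3.78 ± 0.15), Pfkp (2.96 ± 0.13), Pfkl (2.60 ± 0.13) and Egln3 (2.60 ± 0.14), all with a limma adjusted p of at most 5.5e-09. Ldha (2.57 ± 0.11), Pgk1 (2.05 ± 0.12) and Slc2a1 (1.48 ± 0.16) lay in the same direction. The 2 below 0 were Ddit4 (-1.03 ± 0.15, limma adjusted p = 5.9e-05) and Slc2a3 (-0.50 ± 0.18, limma adjusted p = 0.028), and the call for Slc2a3 was lost in 6 of the 8 fits that left out 1 library. This interaction, the day 0 difference between genotypes and the KO time course all share the 2 KO day 0 libraries.

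**Figure D2:**
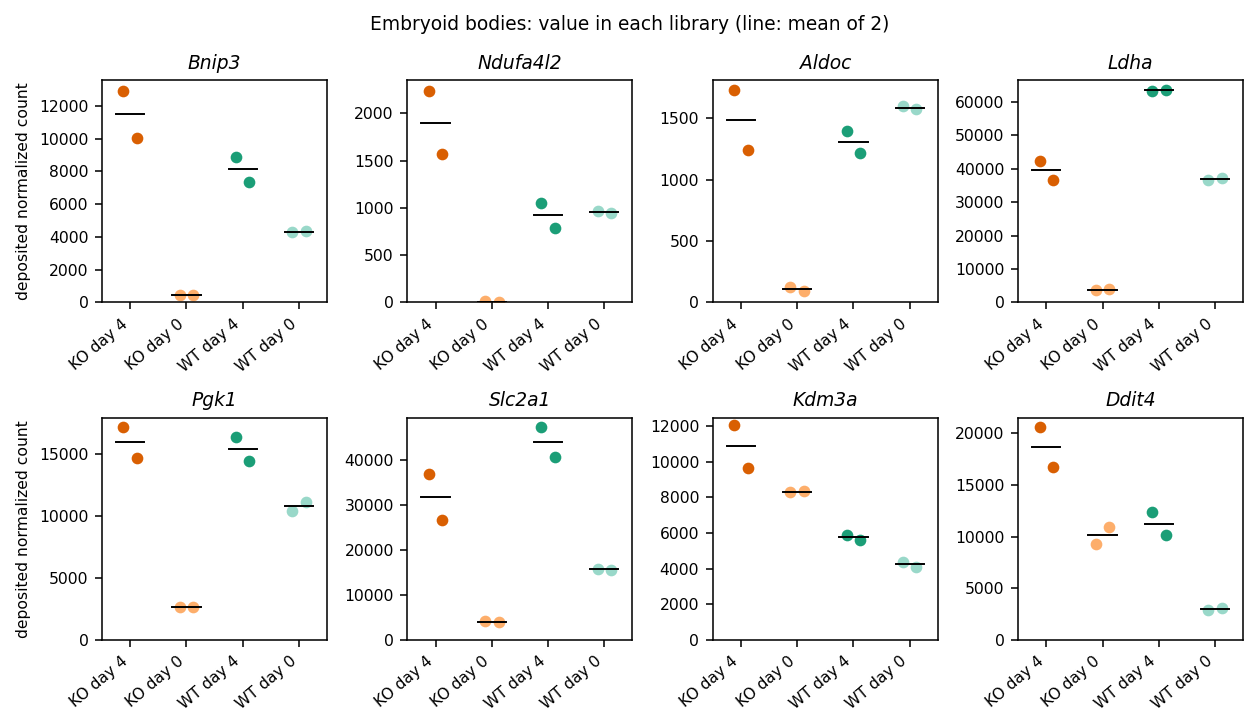
Deposited normalized count (vertical axis, from 0) of 8 members in each EB library, with points for single libraries and a line for the mean of 2, in the order KO day 4, KO day 0, WT day 4 and WT day 0. Bnip3, Ndufa4l2, Aldoc, Ldha, Pgk1 and Slc2a1 are lowest in KO day 0, whereas Kdm3a and Ddit4 are lowest in WT day 0.

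Other genes of the same routes were counted from lists written with earlier results of these data known. Of 23 further genes of glycolysis and pyruvate use tested in EBs, 12 were lower and 5 higher in KO at day 0, where 33.3% of all genes tested were lower and 33.9% higher. They include Pgm2, a phosphoglucomutase, with 562 and 622 in KO against 2812 and 2810.1 in WT (-2.25 on the log2 scale). Of 9 genes of the HIF pathway itself, 7 were higher in KO at day 0 and 2 lower: Hif1a, an alpha subunit, had 7452 and 7802 in KO against 3486 and 3325 in WT (1.16 ± 0.10), Arnt2, a beta subunit, was higher by 1.24, and Hif3a, another alpha subunit, was lower (-1.15). Transcript levels do not show the amount of HIF protein, which was not measured. Of 25 further hypoxia-responsive genes, 14 were lower and 7 higher, to be read against the same shares of all genes: the lysyl oxidase family gene Loxl2 had 187 and 182 in KO against 833 and 795 in WT (-2.13), while the hormone gene Stc2 (2.11) and the glycogen synthase gene Gys1 (1.37) were higher. Medians of these 3 lists were -0.56, 0.66 and -0.56.

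Genes of amino acid and endoplasmic reticulum stress were also higher in KO stem cells at day 0, in 6 of 10 cases, with 2 lower. Of all genes tested, 33.9% were higher and 33.3% lower. Trib3, a pseudokinase gene induced by the stress factor ATF4, had 5590 and 6136 in KO against 1366 and 1394 in WT (2.08), and Herpud1, a gene of protein quality control, had 3094 and 3317 in KO against 639 and 584 in WT (2.39). Ddit4 is known to respond to the same stress pathway, and the part of this pathway in its level was not tested. Txnip and Arrdc4, arrestin-like genes that rise with glucose metabolites, were higher in KO on both days (Txnip by 0.53 at day 0 and 1.89 at day 4). Lineage genes also differed at day 4: primitive streak and mesoderm genes summed to 764 to 778 in KO against 3769 to 6612 in WT, endoderm genes to 148 to 167 in KO against 3821 to 4112 in WT, and pluripotency genes to 66150 to 66530 in KO against 33520 to 34230 in WT. The part of this difference in cell make-up in the day 4 values was not tested. In these bulk samples fewer cells of a type and less RNA per cell cannot be told apart.

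In PDA cells, TGFβ against SB raised a smaller set, mostly flux kinases and HIF targets outside glycolysis. Most carriers and enzymes did not pass the test. Of 32 members that passed the filter, 12 were higher under TGFβ in WT cells (19.4% of all 13226 genes tested) and 2 were lower (17.6% of all genes). In KO cells 13 were higher (20.6% of all genes) and 4 were lower (18.0% of all genes). The medians were 0.26 in WT and 0.21 in KO, beside 0.00 and 0.02 over all genes. The WT count fell most without either WT TGFβ library, and it also changed without KO libraries, which are not part of this comparison. limma shared 1 estimate of spread over the 4 groups, whose replicates differed unequally. A chi-square of replicate reads, per gene, was 48.5 in WT SB and 39.2 in KO TGFβ, but 1.94 in WT TGFβ and 2.95 in KO SB. A lost call may therefore reflect the pooled spread as well as the library left out. The other HIF targets held 6 of the higher calls in WT and 7 in KO, out of 10 tested. The flux kinases held 3 in WT and 2 in KO, out of 4, and the carriers and enzymes 3 in WT and 4 in KO, out of 18.

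Ankrd37 had 151 and 134 under TGFβ against 6.03 and 29.4 under SB in KO, and 166 and 179 under TGFβ against 23.9 and 22.8 under SB in WT. The log2 fold change was 3.29 ± 0.57 in KO (limma adjusted p = 0.0033) and 2.83 ± 0.57 in WT (limma adjusted p = 0.0071). The KO SB value of 6.03 is 3 reads of the shallowest library, and the KO change was 2.24 without that library and 4.35 without the other KO SB library; the WT call was lost without WT TGFβ replicate 2. Bnip3 had 500.3 and 538 under TGFβ against 219 and 208 under SB in KO (1.28 ± 0.11, limma adjusted p = 0.00011), and 557 and 586 under TGFβ against 229 and 199.7 under SB in WT (1.42 ± 0.11, limma adjusted p = 7.3e-05). These values were close in the 2 lines under either treatment. Kdm3a was higher under TGFβ by 0.66 ± 0.10 in KO and 0.98 ± 0.10 in WT, and Egln1 by 0.54 ± 0.06 in KO and 0.34 ± 0.06 in WT, the WT call for Egln1 being lost without WT TGFβ replicate 2. Car9, a cell-surface carbonic anhydrase, had 121 and 103 under TGFβ against 62.4 and 59.7 under SB in KO (0.86 ± 0.20, limma adjusted p = 0.012). That call was lost without either KO SB library or KO TGFβ replicate 1. In WT Car9 had 36.9 and 31.5 under TGFβ against 30.3 and 39.2 under SB (-0.02 ± 0.20). The interaction of genotype and treatment did not pass the test for Car9.

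Ddit4 rose under TGFβ in both lines, but less in KO. It had 2076 and 1738 under TGFβ against 764 and 808 under SB in KO (1.27 ± 0.10, limma adjusted p = 9.8e-05), and 5037 and 4907 under TGFβ against 798 and 901 under SB in WT (2.55 ± 0.10, limma adjusted p = 5.0e-06). The interaction was -1.28 ± 0.15 (limma adjusted p = 0.0022).

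Among the flux kinases, Pdk1 had 1577 and 1702 under TGFβ against 746 and 675 under SB in KO (1.21 ± 0.09), and 1588 and 1576 under TGFβ against 883 and 809.9 under SB in WT (0.90 ± 0.09). Pfkfb3 had 3164 and 3348 under TGFβ against 2349 and 2250.2 under SB in KO (0.50 ± 0.08), and 2534 in both TGFβ libraries against 1154 and 1019 under SB in WT (1.22 ± 0.08). Its response was smaller in KO by an interaction of -0.72 ± 0.11 (limma adjusted p = 0.0059), and its level under SB was already higher there. Pfkfb4 was higher under TGFβ in WT (0.78 ± 0.17, limma adjusted p = 0.011), a call lost without either WT TGFβ library. In KO its change was 0.46 ± 0.17 (limma adjusted p = 0.072), and its interaction did not pass the test.

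Among carriers and enzymes, Hk2, the inducible hexokinase, showed the clearest difference between the lines. It had 11803 and 11617 under TGFβ against 13671 and 14035 under SB in KO (-0.24 ± 0.06, limma adjusted p = 0.011), and 12157 and 12213 under TGFβ against 5759 and 5729 under SB in WT (1.08 ± 0.06, limma adjusted p = 1.2e-05). The KO call was lost with quantile normalization, with rescaling to the same total and without either KO SB library. The WT SB libraries were the low ones, and the interaction was -1.33 ± 0.08 (limma adjusted p = 0.00035). Eno2 fell under TGFβ in KO, with 78.8 and 69.1 against 181 and 154 under SB (-1.17 ± 0.16, limma adjusted p = 0.0011), and in WT it had 117 and 102 against 113 and 101 (0.03 ± 0.16). Slc2a1 had 9620.5 and 7740.2 under TGFβ against 10473 and 10931 under SB in KO (-0.31 ± 0.14, limma adjusted p = 0.12), and 10179 and 9884 against 6915 and 8933 in WT (0.35 ± 0.14, limma adjusted p = 0.082).

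Ldha rose slightly under TGFβ in KO, with 58733 and 56881 against 46966 and 46258 under SB (0.31 ± 0.06, limma adjusted p = 0.0058), a call lost without KO SB replicate 2, and in WT it had 53854 and 56063 against 54294 and 56785 (-0.01 ± 0.06). Pgk1 had 14085 and 16265 under TGFβ against 13842 and 13734 under SB in KO (0.14 ± 0.09, limma adjusted p = 0.28), and 10784 and 11013 against 14124 and 12392 in WT (-0.28 ± 0.09, limma adjusted p = 0.044). The WT call for Pgk1 was lost with libraries rescaled to the same total and without any of 5 single libraries. Aldoa, Pkm and Gapdh changed by at most 0.13 on the log2 scale in either line and did not pass the test. The WT SB libraries differed from each other in several of these genes: Pfkl, for example, had 2940.5 in one and 4345 in the other.

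**Figure D3:**
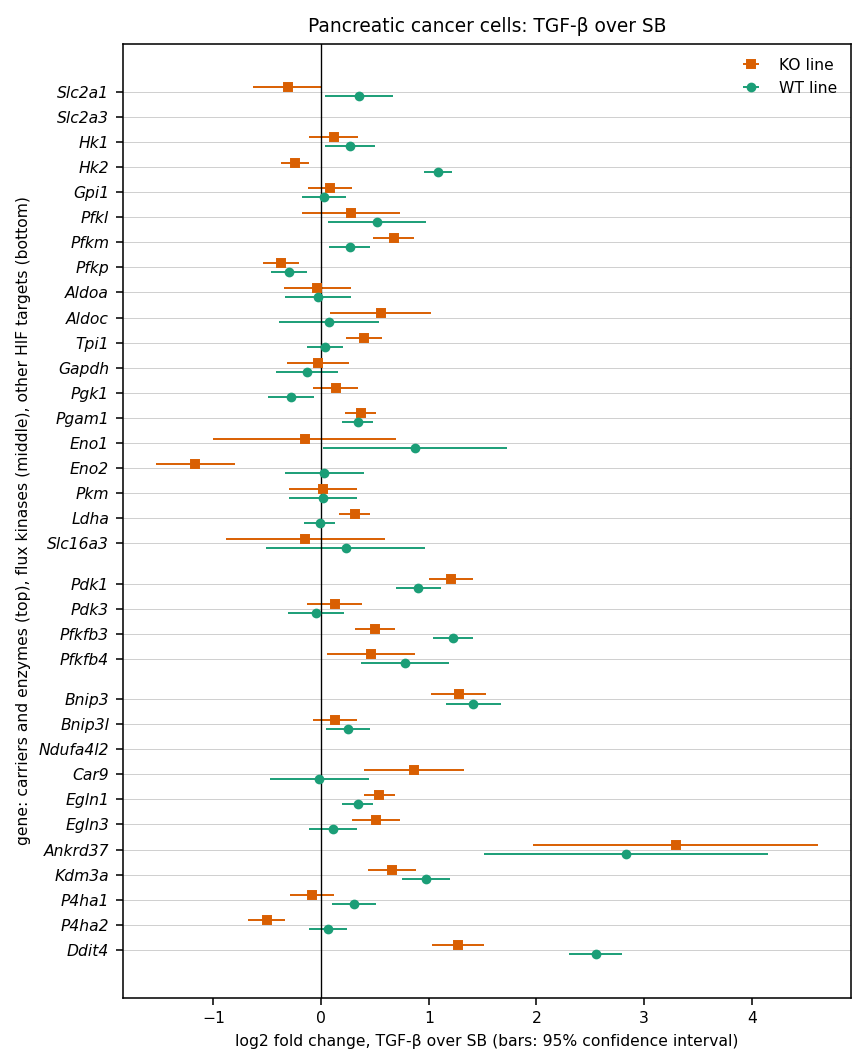
Log2 fold change of TGFβ over SB for the 32 members tested in PDA cells (horizontal axis, with 95% confidence intervals from limma), in the KO line (orange squares) and the WT line (green circles). Most carriers and enzymes lie near 0 in both lines, Ankrd37 lies farthest right, and Hk2, Ddit4 and Eno2 stand apart between the lines.

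The interaction of genotype and treatment passed the test for 9 of 32 members, 3 above 0 (9.71% of all genes tested) and 6 below 0 (12.1% of all genes). P4ha2 (-0.57 ± 0.10, limma adjusted p = 0.010) and Slc2a1 (-0.66 ± 0.19, limma adjusted p = 0.048) joined Hk2, Ddit4, Eno2 and Pfkfb3 below 0, and Pfkm, Tpi1 and Ldha (0.33 ± 0.09, limma adjusted p = 0.034) lay above 0. The calls of P4ha2 and Slc2a1 were lost without either WT TGFβ library or either KO SB library, and that of Eno2 without WT TGFβ replicate 1 or KO SB replicate 1. The calls above 0 depended on the method: the split was 0 above and 7 below by edgeR, 0 and 6 by DESeq2, 5 and 5 with quantile normalization, and 6 and 5 with libraries rescaled to the same total. Without WT TGFβ replicate 1 the count was 3, without replicate 2 it was 4, and without KO SB replicate 1 or 2 it was 3 or 5. Bnip3 (-0.14 ± 0.15) and Pgk1 (0.41 ± 0.13, limma adjusted p = 0.055) did not pass.

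Between the 2 lines under the same treatment, KO against WT, a few members differed by much more than treatment moved them. Under SB 13 of 32 were higher in KO (28.9% of all genes tested) and 5 were lower (27.2% of all genes). Under TGFβ 9 were higher (21.2% of all genes) and 4 were lower (19.0% of all genes). Under SB, leaving out KO replicate 1 left 8 members called and leaving out KO replicate 2 left 11, and the TGFβ count was 8 without either WT TGFβ library. With libraries rescaled to the same total, the splits were 9 higher and 6 lower under SB and 7 higher and 5 lower under TGFβ. The 2 lines may differ by clone as well as by label, and this was not tested.

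Pdk3 had 890.0 and 1067 in KO against 287 and 288 in WT under TGFβ (1.76 ± 0.11, limma adjusted p = 1.4e-05), and 897 and 886 in KO against 311 and 284 in WT under SB (1.58 ± 0.11, limma adjusted p = 2.1e-05). Pfkp had 2916 and 2957 in KO against 968 and 1005 in WT under TGFβ (1.57 ± 0.07), and 3954 and 3674 in KO against 1243 and 1187 in WT under SB (1.65 ± 0.07). These differences were about the same size under both treatments. Car9 was higher in KO by 1.68 ± 0.20 under TGFβ (limma adjusted p = 0.00037) and by 0.81 ± 0.20 under SB (limma adjusted p = 0.010), the second being lost without KO SB replicate 1 and by DESeq2. Pfkfb4 was lower in KO, with 184 and 158 against 399 and 408 in WT under TGFβ (-1.24 ± 0.17) and 105 and 146 against 220.3 and 251 in WT under SB (-0.92 ± 0.17).

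Further members are given under both treatments, and the test of whether a difference depended on the treatment is the interaction above, which Egln3, Pgk1 and Bnip3 did not pass. Hk2 was higher in KO under SB (1.27 ± 0.06) and had -0.06 ± 0.06 under TGFβ, and Pfkfb3 was higher by 1.08 ± 0.08 under SB and 0.36 ± 0.08 under TGFβ, the second call being lost without either WT TGFβ library. Ddit4 was lower in KO under TGFβ (-1.39 ± 0.10, limma adjusted p = 3.6e-05) and had -0.11 ± 0.10 under SB. Egln3 had 2621 and 2784 in KO against 1637 and 1684 in WT under TGFβ (0.70 ± 0.10), and 1858 and 1933 in KO against 1683 and 1409 in WT under SB (0.30 ± 0.10), the second call being lost in 8 alternatives. Slc2a1 was higher in KO under SB by 0.45 ± 0.14 (limma adjusted p = 0.026), a call lost under both rescalings and without any of 3 SB libraries, and Ldha was lower by 0.25 ± 0.06 under SB, a call lost without either KO SB library. Bnip3 did not differ beyond its spread under either treatment (-0.14 ± 0.11 under TGFβ and 0.00 ± 0.11 under SB). Pgk1 was higher in KO under TGFβ by 0.47 ± 0.09 and had 0.06 ± 0.09 under SB.

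**Figure D4:**
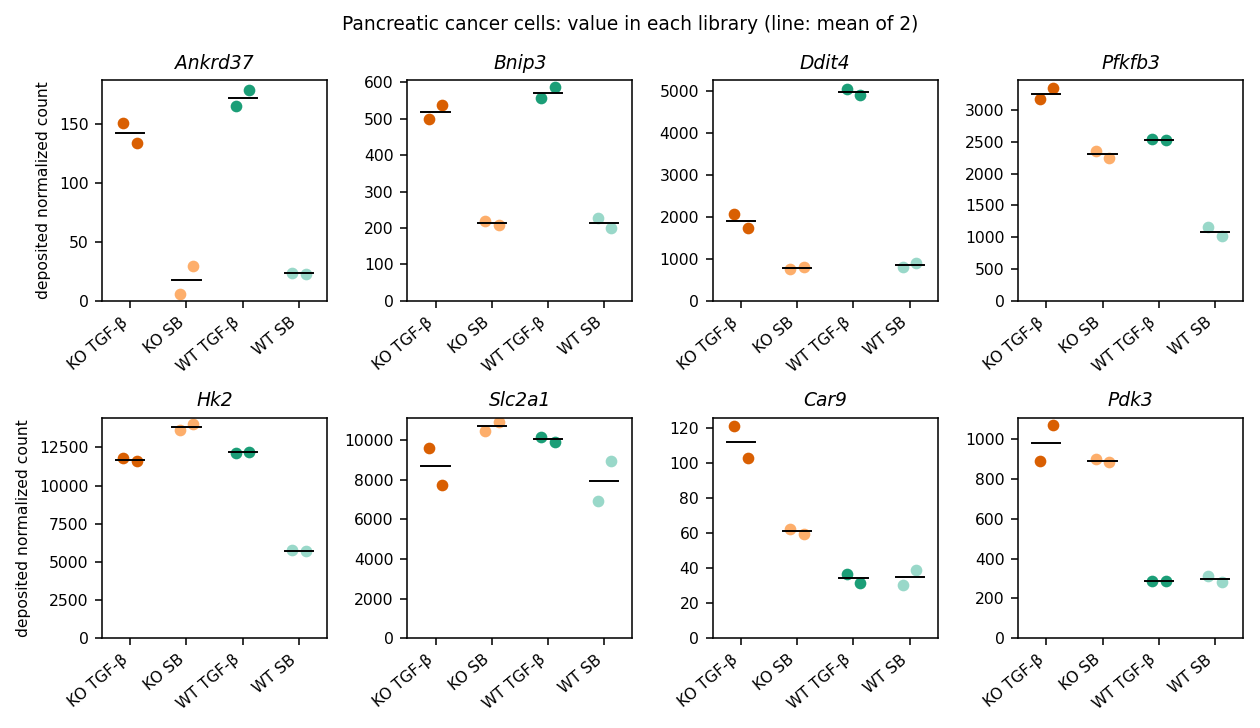
Deposited normalized count (vertical axis, from 0) of 8 members in each PDA library, with points for single libraries and a line for the mean of 2, in the order KO TGFβ, KO SB, WT TGFβ and WT SB. Ankrd37 and Bnip3 follow the treatment in both lines, Pdk3 follows the genotype label, and Hk2 is low in WT SB alone among the 4 groups.

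Of 23 further hypoxia-responsive genes tested in PDA cells, 10 were higher and 6 lower under TGFβ in KO, and 8 were higher and 6 lower in WT. Of all genes tested, 20.6% were higher and 18.0% lower in KO, and 19.4% were higher and 17.6% lower in WT. Vegfa, the angiogenic factor, had 3672 and 3225 under TGFβ against 4727 and 4758 under SB in KO (-0.46), and 12133 and 11918 against 2604 and 2983 in WT (2.11), with an interaction of -2.57. Angptl4, a lipase inhibitor gene, fell in both lines (-3.54 in KO and -3.21 in WT), whereas the repressor Bhlhe40 rose in both (2.25 in KO and 2.76 in WT). The HIF pathway genes had 0 higher and 0 lower of 8 under TGFβ in KO and 2 higher and 2 lower in WT, where Hif1a was higher by 0.61. Genes of endoplasmic reticulum and amino acid stress were lower under TGFβ in 10 of 10 cases in both lines, and their summed level was 75790 to 84360 under TGFβ against 956900 to 992600 under SB in KO, and 76190 to 76520 under TGFβ against 379300 to 445700 under SB in WT. Under SB the chaperone gene Hspa5 carried most of this sum (637250 and 613930 in KO, 241080 and 204920 in WT). Vegfa, Ddit4 and Hk2 are measured against these SB libraries, and the part of this stress state in their differences was not tested.

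In the organoids, with 1 library per condition and so no test, most members were highest without dox under SB. Of 31 members with a mean of at least 10, dox against no dox under TGFβ left 1 higher by at least 1.5 times (16.8% of all 13443 genes) and 13 lower (18.2% of all genes). Under SB 1 was higher (18.0% of all genes) and 23 were lower (18.2% of all genes). The medians were -0.52 under TGFβ and -1.10 under SB, beside -0.01 and 0.00 over all genes. The higher gene was Hk2 under TGFβ and Ddit4 under SB. Intervals given for the organoids are exact 95% counting intervals, which cover counting error only.

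Slc16a3 had 235 with dox against 1170.3 without under TGFβ (log2 ratio -2.31, -2.53 to -2.10), and 137 against 2867 under SB (-4.38, -4.61 to -4.17). Aldoc had 616 with dox against 3208 without under TGFβ (-2.38), and 789 against 4688 under SB (-2.57). Pfkl had 4922 against 13049 under TGFβ and 5786 against 19899 under SB. These 3 genes of glycolysis were lower with dox under both treatments. Pgk1 had 4423 against 6353 under TGFβ and 6161 against 14491 under SB. Ldha had 26833 against 29040 under TGFβ (-0.11, -0.14 to -0.09) and 36586 against 61301 under SB (-0.74, -0.76 to -0.73). Slc2a1 had 4603 against 4085 under TGFβ (0.17, 0.11 to 0.24) and 4607 against 8079 under SB (-0.81, -0.86 to -0.76). Hk2 was higher with dox under both, with 1797 against 860.4 under TGFβ (1.06, 0.94 to 1.19) and 1392 against 950.2 under SB (0.55, 0.44 to 0.66).

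Among the HIF targets, Bnip3 had 728 with dox against 2467 without under TGFβ (-1.76, -1.89 to -1.64) and 849 against 7515 under SB (-3.15, -3.24 to -3.06). Ankrd37 had 38.5 against 105 under TGFβ and 28.3 against 276 under SB. P4ha2 had 1356 against 2695 under TGFβ and 933 against 4303 under SB. For these genes the 2 dox libraries were closer to each other than the 2 without dox, and the SB library without dox was the highest of the 4. Ddit4 ran the other way: it had 16125 against 11033 under TGFβ (0.55, 0.51 to 0.58) and 7834 against 4023 under SB (0.96, 0.91 to 1.01). Pdk1 had 1054 against 2537 under TGFβ and 1119 against 4289.5 under SB, while Pdk3 ranged only between 633 and 675 over the 4 libraries.

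TGFβ against SB moved members mainly in organoids without dox. With dox, 2 of 31 were higher by at least 1.5 times (7.74% of all genes) and 1 was lower (7.23% of all genes): Ddit4 had 16125 under TGFβ against 7834 under SB (1.04, 1.00 to 1.08), Slc16a3 had 235 against 137 (0.78, 0.49 to 1.08), and Pfkp had 1718 against 3035 (-0.82, -0.91 to -0.74). Without dox, 1 was higher (8.44% of all genes) and 18 were lower (8.02% of all genes). The higher one was again Ddit4, with 11033 under TGFβ against 4023 under SB (1.46, 1.41 to 1.51). The lower ones included Pfkp with 1519 against 4851 (-1.67), Bnip3 with 2467 against 7515 (-1.61), Slc16a3 with 1170.3 against 2867 (-1.29), Pgk1 with 6353 against 14491 (-1.19) and Ldha with 29040 against 61301 (-1.08). Bnip3 and Ankrd37, which were higher under TGFβ in both PDA lines, were lower under TGFβ in organoids without dox, and no test joined the 2 systems, whose tables were normalized separately. Both comparisons by TGFβ and both by dox share libraries, so the SB library without dox enters 2 of the 4.

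**Figure D5:**
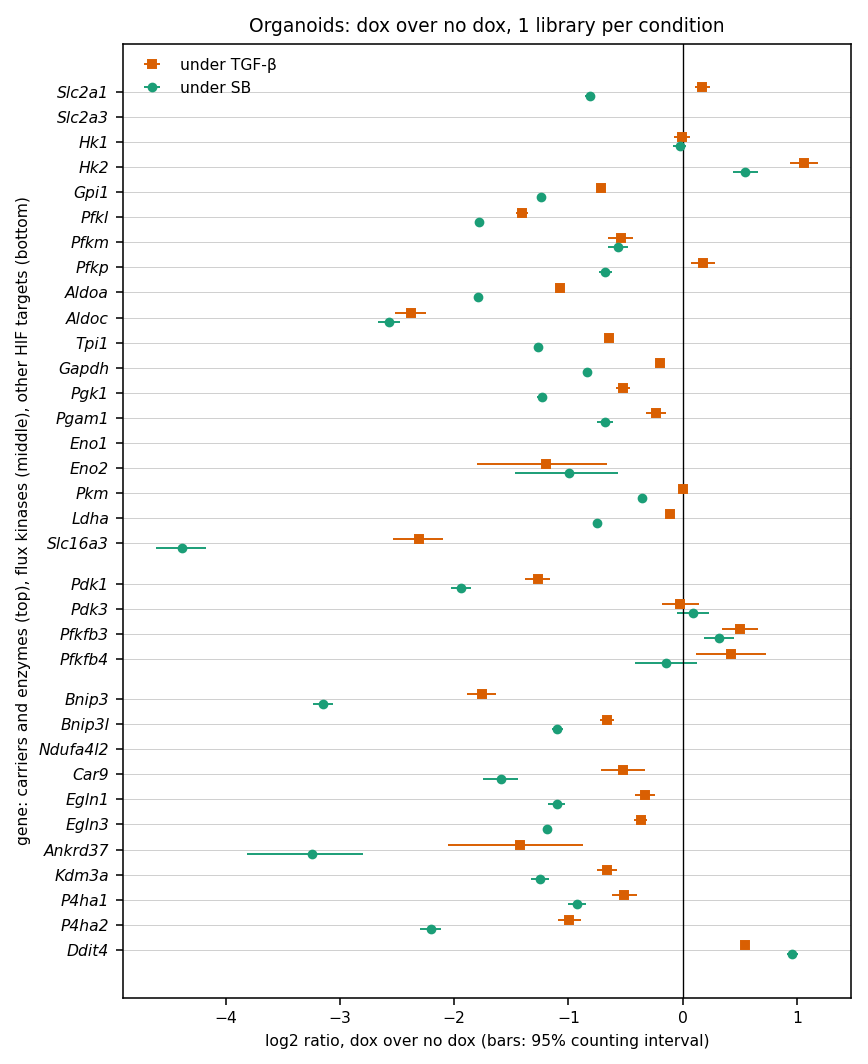
Log2 ratio of dox over no dox for the 31 organoid members with a mean of at least 10 (horizontal axis, with 95% counting intervals), under TGFβ (orange squares) and under SB (green circles), from 1 library per condition. Most members lie left of 0 and farther left under SB, down to -4.38 for Slc16a3. Right of 0 lie 7 members under TGFβ and 4 under SB, among them Hk2 and Ddit4 under both treatments.

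Genes of the other lists moved in the same libraries. Of 24 further hypoxia-responsive genes, 7 were higher and 5 lower with dox under TGFβ, and 4 higher and 11 lower under SB. Of all genes tested, 16.8% were higher and 18.2% lower under TGFβ, and 18.0% were higher and 18.2% lower under SB. Under SB, Ak4, an adenylate kinase gene, had 250.0 with dox against 1276 without and Ndrg1 had 3782 against 10513. Hif1a had 7345 with dox against 6718 without under TGFβ, and 7616 against 4974 under SB. Stress genes were higher with dox in 6 of 10 cases and lower in 1 under both treatments. Chac1, a glutathione-degrading enzyme gene induced by ATF4, had 5984 with dox against 154 without under TGFβ and 9576 against 272 under SB. The lower gene was Xbp1, with 12133 with dox against 28166 without under TGFβ and 16011 against 33175 under SB. Ductal epithelial genes summed to 278900 with dox against 208500 without under TGFβ, and to 224800 against 269800 under SB. The part of these differences in the members' values was not tested.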

How the data were processed

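RNA was measured by RNA-seq in 20 libraries: per the labels' protocols, libraries were made with a TruSeq kit that does not mark strand and read as single ends. Tools listed, without their roles, per the submitters' processing notes, are HOMER, Bowtie2, DESeq2 3.4, FastQC 0.11.5 and HTSeq 0.6.1p1, and the build is mm10. The deposited signal is 1 normalized read count per gene and library. Each value was a whole number of reads divided by 1 factor per library, to a tolerance of 0.001 for 100% of values, which gave the depth. Reads shared by near-identical copies, or by a gene and an antisense partner, cannot be told apart.

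The 34 members and the other gene lists were chosen with earlier results of these data known. In the PDA and EB tables a gene was kept if 2 or more of 8 libraries reached a value of 10, and values were transformed as log2(value + 1), which understates the change of low genes. Fold changes, standard errors (± in the text), 95% confidence intervals and two-sided p-values came from limma 3.58.1 with a trend (R 4.3.3), over 8 libraries in 4 groups of 2, with Benjamini-Hochberg adjustment over all genes tested and a threshold of 0.05. In organoids a mean of at least 10 was required, and a log2 ratio past 1.5-fold was counted. Named members are the 6 called ones with the largest change per comparison, non-overlapping groups and a table mean of 50 or more, plus Slc2a1, Ldha, Pgk1, Bnip3 and Ddit4, and up to 4 genes per further list; other members are described as examples of their class, chosen after their values were seen.

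Alternatives were a pseudocount of 5, no filter, quantile normalization, rescaling to the same total, edgeR 4.0.16 (quasi-likelihood) and DESeq2 1.42.0 on the recovered reads, the replicate number as a block, each library left out in turn, and 2-fold for organoids. Tigar was matched under its older symbol. ChIP-seq and ATAC-seq samples were not analysed here.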

Additional observations from a re-analysis of the deposited data

Results flagged for a closer look

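The time course of EBs differed between genotypes in 30 of 34 members, by the test of the interaction (KO minus WT, log2 scale, limma adjusted p under 0.05). Of these, 28 were above 0 (27.1% of all genes tested) and 2 below (28.6% of all genes). The call for Slc2a3 was lost in most fits that left out 1 library. Among the members described above, the difference was 7.62 for Ndufa4l2, 4.01 for Aldoc, 3.78 for Bnip3, 2.96 for Pfkp, 2.60 for Pfkl, 2.60 for Egln3, 2.57 for Ldha, 2.05 for Pgk1 and 1.48 for Slc2a1, and the members below 0 were Ddit4 (-1.03) and Slc2a3 (-0.50).

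The response of PDA cells to TGFβ against SB differed between the lines in 9 of 32 members, by the same kind of test. Of these, 3 were above 0 (9.71% of all genes tested) and 6 below (12.1% of all genes). The difference was -1.33 for Hk2, -1.28 for Ddit4, -1.20 for Eno2, -0.72 for Pfkfb3, -0.66 for Slc2a1 and -0.57 for P4ha2, and it was 0.41 for Pfkm, 0.36 for Tpi1 and 0.33 for Ldha. With edgeR or DESeq2, 0 members passed above 0. The calls of Eno2, Slc2a1 and P4ha2 were lost when some single libraries were left out, as given above.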

How the results depend on the processing

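Of 97 member values named, 92 kept their sign and 78 kept their side of the threshold under every alternative run. The values that changed sign were not called in the main fit. Pgk1 in KO against WT EBs at day 4 became -0.129 with quantile normalization and -0.052 with rescaling to the same total, and ranged between -0.069 and 0.160 when single libraries were left out (-0.044 without WT day 4 replicate 2). In PDA cells under SB, Bnip3 (KO against WT) became -0.153 with rescaling and -0.004 with DESeq2, and ranged between -0.096 (without WT SB replicate 2) and 0.097 when single libraries were left out (-0.036 without KO SB replicate 1). Pgk1 there became -0.106 with quantile normalization, -0.094 with rescaling, and between -0.035 (without WT SB replicate 2) and 0.154 when single libraries were left out. Ldha became -0.010 in KO against WT under TGFβ with rescaling. For TGFβ against SB in WT it became 0.105 with quantile normalization, 0.025 with rescaling, and between -0.047 and 0.017 when single libraries were left out (0.014 without WT TGFβ replicate 1). The cause was not tested.

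Leaving out 1 library at a time gave these ranges of members called (all genes in parentheses). For TGFβ in PDA WT it was 6 to 17 (2244 to 5181, against 14 and 4887 with all libraries), for TGFβ in KO 14 to 18 (2944 to 5934, against 17 and 5113), and for the PDA interaction 3 to 11 (781 to 3883, against 9 and 2886). For KO against WT it was 8 to 21 under SB (5494 to 7669) and 8 to 15 under TGFβ (3169 to 6132). In EBs it was 30 to 33 at day 0 (8602 to 10553), 14 to 23 at day 4 (6937 to 8443), 32 to 33 over time in KO (7596 to 8971), 21 to 26 over time in WT (7795 to 9979) and 28 to 31 for the interaction (7207 to 8421). Where a group keeps 1 library, it is assumed to vary like the other groups. In PDA cells the groups did not vary alike: the chi-square of replicate reads, per gene, lay between 1.94 (WT TGFβ) and 48.5 (WT SB).

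Without the filter on low values the PDA interaction called 5 members. Organoid counts at 2-fold were 8 for TGFβ without dox, 1 for TGFβ with dox and 9 for dox under TGFβ, and 6 for TGFβ with dox without the filter. Blocking on the replicate number, the PDA interaction called 5 members and 1596 genes. Deviations of same-numbered libraries correlated between -0.506 and 0.144 in PDA cells and between -0.0335 and 0.0905 in EBs. The -0.506 was between WT SB and KO TGFβ, the PDA groups whose replicates differed most (chi-square per gene 48.5 and 39.2). With 2 libraries per group, such correlations cannot decide whether same-numbered libraries were paired. In EBs at day 4, replicate 1 was above replicate 2 for 32 of 34 members in KO and 31 of 34 in WT. Whether a batch was shared, across the same or differing numbers, was not tested. Crossing the numbers for TGFβ in PDA KO, an alternative chosen after seeing the data, called 19 members and 6101 genes, against 17 and 4235 with the numbers as given.

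Rescaling to the same total moved the median of all genes by more than 0.1 in 2 comparisons, to 0.133 for TGFβ in PDA KO (3830 higher and 1802 lower genes) and -0.156 for KO against WT under SB (2975 and 4901). It also shifted the split of the PDA interaction to 1869 above and 1388 below 0, that of KO against WT under TGFβ to 2360 higher and 3305 lower, and that of KO against WT EBs at day 4 to 3428 higher and 5331 lower. Precision rests on 2 libraries per group, or 1 in organoids, and low members such as Ankrd37 rest on few reads in the shallow KO SB library.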
